A study of Mus musculus with 19 samples.

Results

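RNA content, taken as the number of mouse gene counts per ERCC spike-in count in a well, was compared between neuron classes of the mouse lateral hypothalamic area (LHA). Hcrt neurons gave at least 1% of their mouse counts to Hcrt, Pmch neurons gave at least 1% to Pmch, and neurons under 1% for both formed the class called neither. Of 1612 wells labelled LHA, 78 had fewer than 1000 detected genes and a further 169 had fewer than 10 counts of Snap25, a gene of the synaptic release machinery used here to require a neuron. The 1365 wells kept held 935 Hcrt neurons, 67 Pmch neurons, 360 neurons of neither class and 3 neurons past both limits, which entered no class. Of the 169 wells lost to the Snap25 limit, 130 had at least 1% Hcrt, 38 belonged to neither class and 1 had at least 1% Pmch. Because counts of Hcrt, Pmch and Snap25 and the number of genes chose the neurons, these are described without a test.

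The mice, 7 in number, were males of 6 to 8 weeks that carried Agrp-IRES-Cre and the Ai9 reporter, so that Cre made from the Agrp locus switches on a red fluorescent reporter in AGRP neurons. Tissue was cut along the fluorescent AGRP axons, digested with protease, and non-fluorescent cell bodies were picked by hand into 19 plates of 96 wells (replicates 1 to 19). The neuron classes therefore share genotype, sex, age and handling, and no group was treated. Which mouse filled which plate is not labelled, so plates may share animals, and a p-value computed over plates can then be smaller than one over mice.

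Hcrt codes for the precursor of the orexin (hypocretin) peptides, which promote wakefulness and feeding, and Pmch for the precursor of melanin-concentrating hormone, a peptide linked to feeding and sleep. Both genes are expressed by peptide-secreting neurons of the LHA. ERCC spike-ins are synthetic RNAs added in a fixed amount to each reaction, so that counts per spike-in count follow the amount of captured RNA in a well and not only the share of each gene. The amount of spike-in RNA put in each well is not given in the sources used here, so RNA content has no absolute unit. It covers the polyadenylated RNA of a picked cell body, not of the axons and dendrites lost in dissociation.

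The classes were well apart in the genes that define them. On the GRCm38 build Hcrt lies on the minus strand of chromosome 11 from 100761069 to 100762931 and Pmch on the plus strand of chromosome 10 from 88091072 to 88092375. Hcrt took a median of 13.6% of the mouse counts of Hcrt neurons (1.61% to 24.2%) and a median of 0.185% in neither. Pmch took a median of 17.8% in Pmch neurons (12.1% to 25.8%) and at most 0.743% in neither. Few neurons lay near the Hcrt limit: 3 neurons at 1% to 2% Hcrt had a median content without Hcrt and Pmch of 25.4, and 41 neurons at 0.5% to 1% had 13.9. Per 1000 ERCC counts, the summed Hcrt amount had a lowest, median and highest plate value of 2601, 5386 and 7161 in Hcrt neurons, 30.9, 90.7 and 254 in Pmch neurons, and 8.83, 48.4 and 86.4 in neither.

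A kept neuron held a median of 1403 ERCC counts (273 to 9652) and 41787 mouse counts (10142 to 263078), and a plate held 43 to 81 kept neurons. The wells labelled as ERCC (64) or empty (40) set the background, with a median of 0.122 mouse counts per ERCC count. A well labelled Empty on plate 15 had 10.7, so the labels do not show that every such well lacked a cell. The 68 wells labelled qRNA, whose contents are not stated, had a median of 12.8, and within a plate their log2 values had a median SD of 0.156. Hcrt neurons and neurons of neither class had a within-plate SD of 0.489 and Pmch neurons of 0.372. Of 8 oligodendrocyte markers, the summed share was over 1% of counts in 10 Hcrt wells, 2 wells of neither class and 0 Pmch wells.

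Hcrt and Pmch neurons held more RNA than neurons of neither class, and Pmch neurons the most. The median content per neuron was 37.0 mouse counts per ERCC count in Hcrt neurons (5th to 95th percentile 19.1 to 65.8), 53.0 in Pmch neurons (24.3 to 84.5) and 15.4 in neither (7.25 to 29.6). The 3 neurons past both limits had contents of 74.7, 110.5 and 212.5, and whether their wells held more than 1 cell was not tested. Leaving out the counts of Hcrt and Pmch, the median was 31.97 in Hcrt neurons, 43.9 in Pmch neurons and 15.4 in neither. The classes therefore stayed in the same order when the peptide genes that chose them were removed.

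Over plates with at least 3 neurons of a class, the lowest, median and highest plate median of this content without Hcrt and Pmch was 21.1, 31.997 and 38.1 for Hcrt neurons (19 plates). It was 22.6, 44.3 and 58.6 for Pmch neurons (13 plates) and 9.61, 16.96 and 30.2 for neither (17 plates). The ranges overlap between plates, since neither reached 30.2 in replicate 1 and Hcrt neurons fell to 21.1 in replicate 15. Inside a plate the order was more regular, as the plot of plate medians shows.

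**Figure D1:**
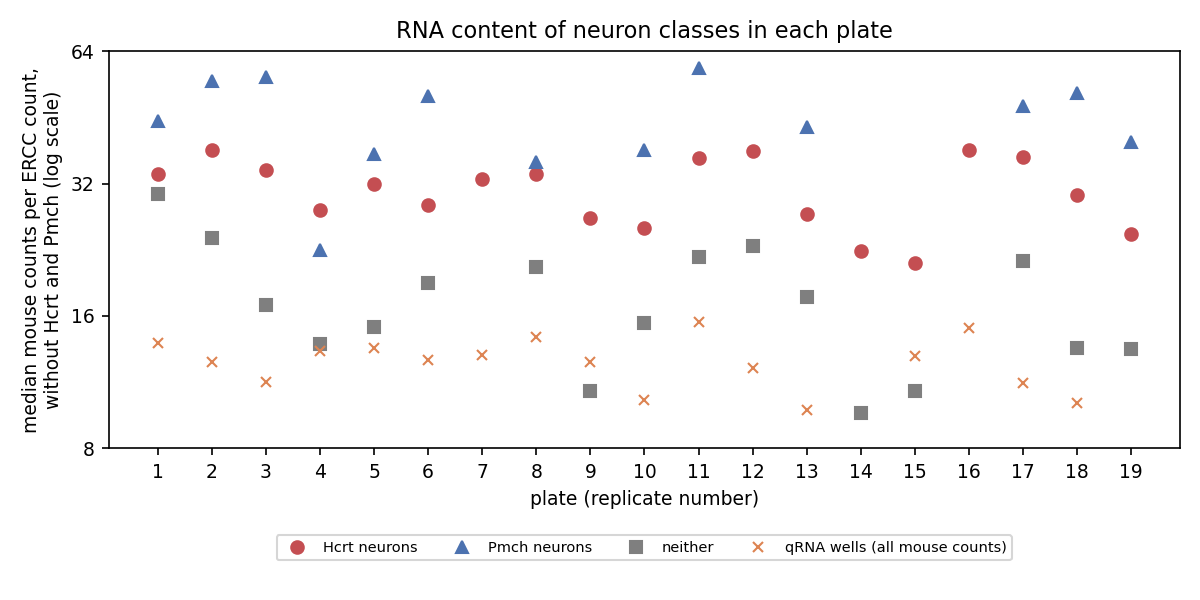
Median mouse counts per ERCC count without Hcrt and Pmch (log axis) of Hcrt neurons (circles), Pmch neurons (triangles) and neither (squares) in each plate with at least 3 neurons of the class; crosses are the qRNA wells with all mouse counts. Circles lie above squares in all 17 plates that have both, and triangles lie above circles in 12 of 13.

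Within plates, Hcrt neurons held 1.79-fold the content of neither once Hcrt and Pmch were left out, a difference of 0.84 ± 0.28 on the log2 scale (SD, n = 17 plates, 793 and 356 neurons). The difference was above 0 in 17 of 17 plates and ran from 0.15 in replicate 1, which had 4 neurons of neither class, to 1.31 (permutation p = 4e-05, adjusted over 6 tests 0.00012, the lowest that sign flips can give here up to the error of random draws). Pmch neurons held 2.39-fold the content of neither, a difference of 1.26 ± 0.39 (SD, n = 13 plates, 61 and 235 neurons). All 13 plates were above 0, from 0.55 to 1.93 (permutation p = 0.000244, adjusted 0.000366), again the lowest that 13 plates allow. Both comparisons use the same neurons of neither class.

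Pmch neurons also exceeded Hcrt neurons, by 1.396-fold or 0.48 ± 0.32 on the log2 scale (SD, n = 13 plates, 61 and 664 neurons; permutation p = 0.000977, adjusted 0.000977). The difference was above 0 in 12 of 13 plates. Replicate 4, with 3 Pmch neurons, was the exception at -0.30. With Hcrt and Pmch counted, the log2 differences were 1.05 ± 0.29 for Hcrt neurons against neither, 1.54 ± 0.37 for Pmch neurons against neither and 0.55 ± 0.28 for Pmch against Hcrt neurons. These include the counts that chose the classes and are given as a description.

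**Figure D2:**
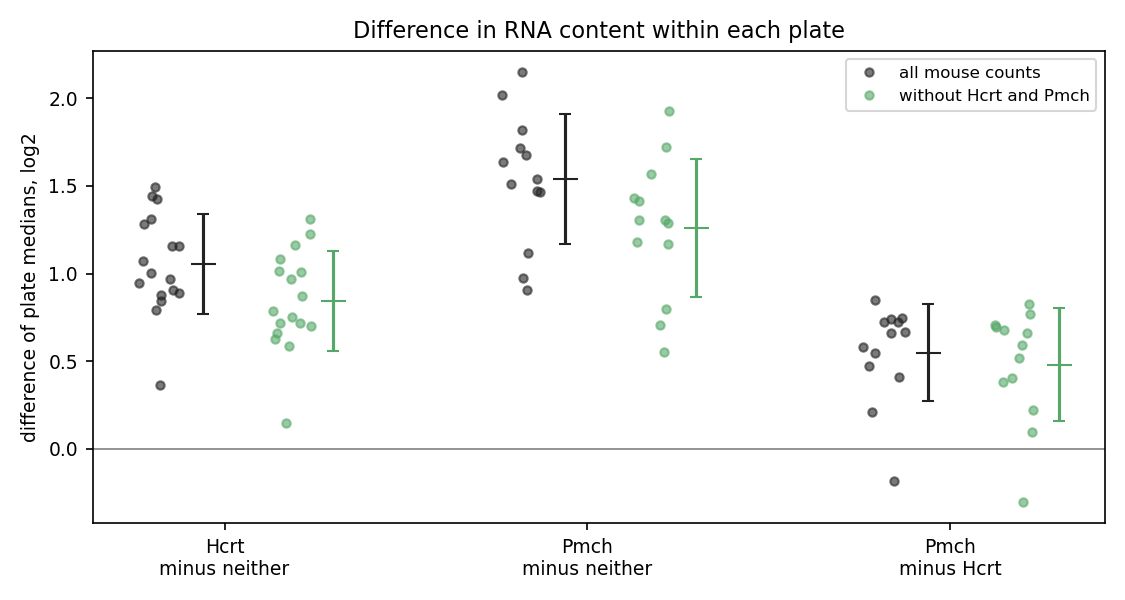
Difference of the plate medians of log2 RNA content for each pair of classes, 1 point per plate, with all mouse counts (dark) and without Hcrt and Pmch (green); crosses and bars are the mean ± SD over plates. All points of both comparisons with neither lie above 0, and 1 plate of Pmch minus Hcrt lies below it.

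The classes overlapped neuron by neuron. Of 356 neurons of neither class, 14 had more content without Hcrt and Pmch than the median Hcrt neuron of their plate (3.93%, exact 95% binomial interval 2.17 to 6.51, counting error only). Of 235, 7 exceeded the median Pmch neuron (2.98%), and 98 of 664 Hcrt neurons did so (14.8%). The overlap was thus small towards neither and larger between both peptide classes.

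The spike-in counts themselves differed little between Hcrt neurons and neither (log2 difference -0.02 ± 0.18, SD, n = 17 plates). They were lower in Pmch neurons than in neither by 0.18 ± 0.18 (12 of 13 plates) and lower than in Hcrt neurons in 13 of 13 plates (-0.18 ± 0.16). Without any scaling to spike-ins, mouse counts other than Hcrt and Pmch differed by 0.85 ± 0.35 between Hcrt neurons and neither (16 of 17 plates), by 1.13 ± 0.52 between Pmch neurons and neither, and by 0.33 ± 0.39 between Pmch and Hcrt neurons (adjusted permutation p = 0.0125). The order of the classes was the same with and without the spike-ins.

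Plates with more ERCC counts per neuron had less RNA content in both classes examined. Over 19 plates the log2 content of Hcrt neurons without Hcrt and Pmch fell with the plate's log2 ERCC counts (Pearson r = -0.843, Spearman rho = -0.837, adjusted permutation p = 0.0005 and 0.001), and r was -0.784 without the 2 plates farthest from the median. For neither the values were r = -0.839 and rho = -0.850 over 17 plates (adjusted permutation p = 0.0005 and 0.001), with r = -0.843 without 2 plates. ERCC counts stand on both axes, so both measures share a term. The log2 difference between both classes rose with ERCC counts by Pearson's r (0.543, adjusted permutation p = 0.04; 0.607 without 2 plates) but not past the threshold by Spearman's rho (0.480, adjusted permutation p = 0.083). In qRNA wells r was -0.178 over 17 plates, and r between Hcrt neurons and qRNA wells was 0.331 (5 relations were computed).

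**Figure D3:**
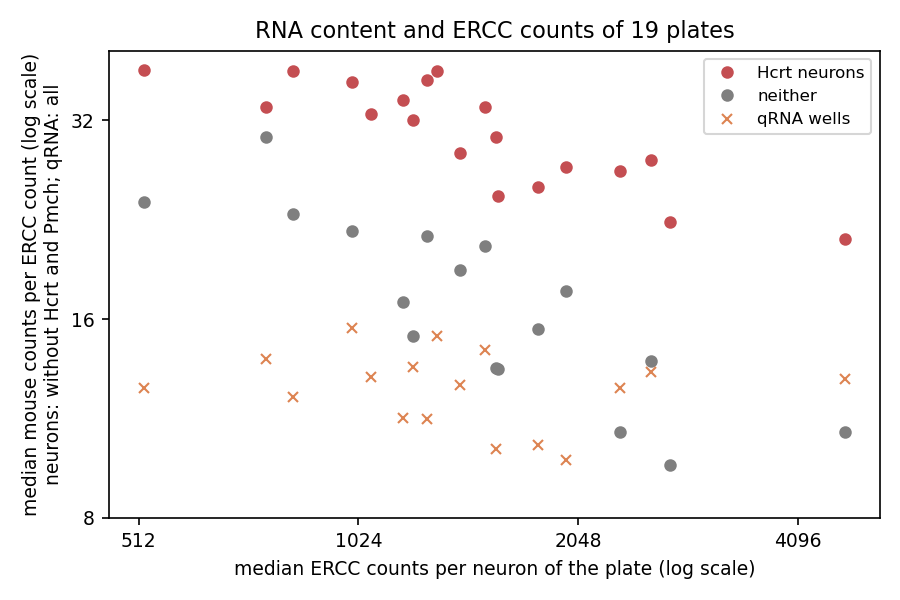
Median content (neurons without Hcrt and Pmch, qRNA wells with all mouse counts; log axis) against the plate's median ERCC counts per neuron (log axis), 1 point per plate and kind of well. Hcrt neurons and neither fall to the right (r = -0.843 and -0.839), and qRNA wells show little slope (r = -0.178).

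Plate titles carried 1 of 4 labels, Q5 to Q8, which the titles do not explain. The mean difference without Hcrt and Pmch between Hcrt neurons and neither was 0.78 in Q5 (5 plates), 0.83 in Q6 (4 plates), 0.86 in Q7 (5 plates) and 0.94 in Q8 (3 plates). For Pmch neurons against neither it was 1.09, 1.17, 1.36 and 1.55, and for Pmch against Hcrt neurons 0.31, 0.50, 0.67 and 0.62. The mean of each comparison had the same sign under every label.

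Content without the peptide genes had no steady order over the Hcrt share. Splitting Hcrt neurons of each plate into 3 groups of equal size by Hcrt share (median 11.01%, 13.96% and 16.3%), the content was 29.7, 33.3 and 29.7. Within plates, Spearman's rho between Hcrt share and content had a median of 0.05, from -0.42 to 0.44, and was above 0 in 12 of 19 plates. The share is taken of all mouse counts, which include those of this content, so both measures share a term. These values therefore cannot show that share and content are unrelated. The class neither was mixed: some of its 360 neurons passed a GABA gate (at least 2 counts of Slc32a1, the vesicular GABA transporter, with Slc17a6, a vesicular glutamate transporter, at no more than 20% of both), 51 passed the reverse glutamate gate, and 194 passed none. Median contents were 15.3, 15.9 and 15.4. In the 7 plates with 3 neurons of both gates, the log2 difference of GABA minus glutamate was -0.18 ± 0.32 (exact permutation p = 0.219, higher in 3 of 7). It was -0.10 without replicate 4, and -0.27 in the 13 plates with at least 1 neuron of both gates (permutation p = 0.0325).

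More genes were seen in the neurons with more RNA. Hcrt neurons had 5337 ± 422 genes (SD of plate medians, n = 17 plates) and neither 4315 ± 432, higher in 16 of 17 plates. At 10000 mouse counts per neuron the order turned, with 2965 ± 74.0 against 3171 ± 153 genes, lower in 16 of 17 plates. With Hcrt and Pmch removed before thinning to 10000 counts, the values were 3188 ± 78.9 and 3172 ± 150, a difference of 15.9 ± 108.2 that was smaller than its spread (1 Hcrt neuron was too shallow). Pmch neurons had fewer genes than neither at 10000 counts of all genes, 3055 ± 93.9 against 3211 ± 127 (lower in 11 of 13 plates). With Hcrt and Pmch removed they had more, 3370 ± 67.0 against 3214 ± 119 in neither (higher in 11 of 13 plates) and 158 ± 54.5 more than Hcrt neurons (13 of 13 plates).

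Scaled to ERCC counts, most genes were higher in Hcrt neurons than in neither. edgeR on counts summed per plate and class called 7100 of 13330 genes higher (53.3%) and 844 lower (6.33%) at an adjusted p under 0.05, and the median log2 fold change was 0.68 with 80.8% of genes above 0. In Pmch neurons against neither it called 5117 of 8305 genes higher (61.6%) and 267 lower (3.21%), the median gene stood at 1.05 and 88.4% were above 0. Between Pmch and Hcrt neurons 3375 of 10321 were higher in the former (32.7%) and 645 lower (6.25%), where the median gene stood at 0.39 and 73.3% were above 0. Hcrt and Pmch are not in these counts, and the 3 comparisons share neurons. The shares called higher were larger among genes of at least 20 CPM (counts scaled to a common total). These were 5174 of 7222, 4809 of 7272 and 2899 of 6420 genes in the same order. Lists below are set next to all genes tested, not next to genes of like abundance.

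These calls depended on the scaling. With TMM, which sets the bulk of genes level, 2548 genes were higher and 1930 lower in Hcrt neurons against neither (median 0.03), so that the percent of calls that were higher went from 89.4 to 56.9. Pmch neurons against neither had 1034 higher and 1129 lower (median -0.10; 95.04% to 47.8%), and Pmch against Hcrt neurons 1186 and 1955 (median -0.18; 84.0% to 37.8%). A gene called higher below has more counts per ERCC count, not always a larger share of the cell's RNA. Of the genes called higher by spike-ins, 1.52%, 3.38% and 2.55% were called lower with TMM in the 3 comparisons in this order, and 24.1%, 19.5% and 1.01% with scaling to library totals.

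**Figure D4:**
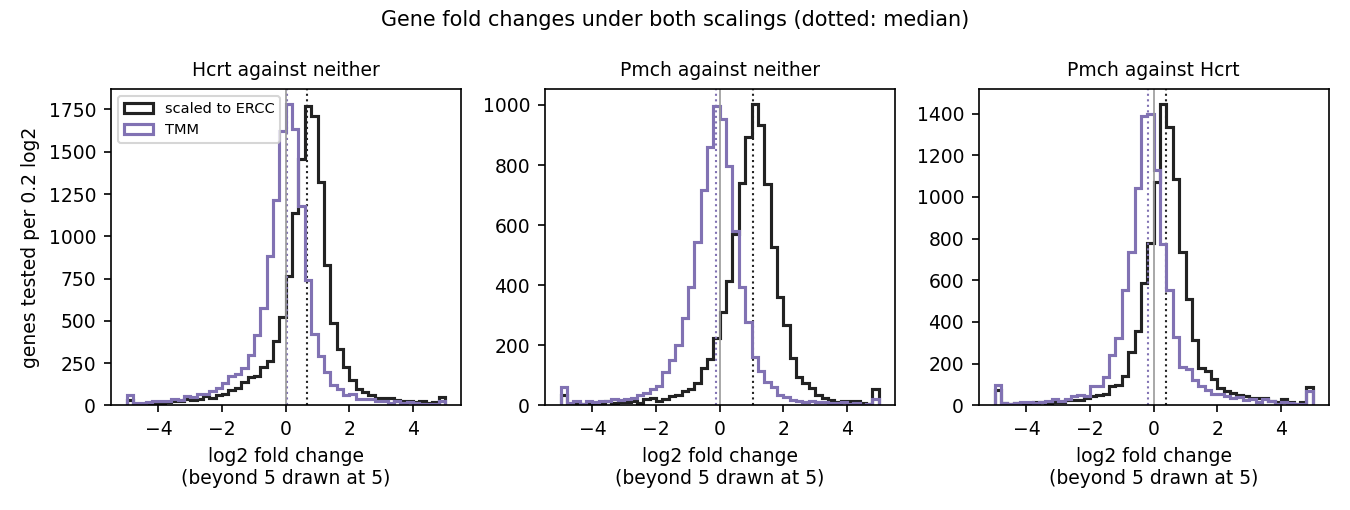
Number of genes by log2 fold change in bins of 0.2, for each pair of classes, scaled to ERCC counts (black) and with TMM (purple); dotted lines are the medians. Scaled to ERCC, the medians are 0.68, 1.05 and 0.39, and with TMM they are 0.03, -0.10 and -0.18.

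The extra RNA was spread over many genes. In counts per ERCC count of the summed wells, Hcrt neurons had 36.8 ± 6.86 and neither 18.02 ± 6.00 (SD, n = 17 plates), and the Hcrt gene alone made 26.3% of this difference. The genes other than Hcrt and Pmch went from 17.96 ± 5.98 to 31.8 ± 5.70, and 240 genes were needed to reach 50% of that rise. Its 10 largest genes made 17.4%. Scg2, which codes for secretogranin II of secretory granules, was the leading one with 5.91% of the whole difference, followed by the nuclear noncoding RNA Malat1 with 1.79%. For Pmch neurons against neither (54.6 ± 10.9 against 19.1 ± 5.38, n = 13 plates), Pmch itself made 26.6%, 430 genes were needed for 50% of the rest, and the 10 largest made 7.61%. Between Pmch and Hcrt neurons, Pmch added 56.4% of the difference and Hcrt took away 30.1%.

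Hcrt neurons held far more RNA of secretory granule genes than neither. Amounts below are counts per 1000 ERCC counts of the summed wells, with the SD over plates, fold changes are log2 values ± SE, and adjusted p is edgeR's. Of 15 granins and prohormone-processing genes, 14 were higher and 1 lower (median 1.55), next to 53.3% and 6.33% of all genes (median 0.68). Scg2 (chromosome 1, 79434669 to 79440120) had a lowest, median and highest plate of 864, 1101 and 1656 in Hcrt neurons and of 27.6, 51.2 and 101.8 in neither. The plates of the 2 classes did not overlap for Scg2, at 4.47 ± 0.09 (adjusted p = 2.7e-52). Pcsk1, the convertase that begins prohormone cleavage, had 21.4 ± 4.48 against 1.80 ± 1.78 (4.01 ± 0.23), and Pcsk2, a second convertase, was higher by 2.27 ± 0.33. Cadps2, a priming factor for dense-core vesicles, was the lower member, with 0.0936 ± 0.0682 against 2.38 ± 1.82.

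Machinery that moves and folds secreted proteins followed, next to 53.3% of all genes higher and 6.33% lower (median 0.68). Of 29 genes of translocation into the endoplasmic reticulum (ER) and signal peptide processing, 28 were higher and 0 lower (median 1.16), of 25 ER chaperone and stress-response genes 22 and 0 (median 1.05), and of 26 Golgi and vesicle coat genes 24 and 0 (median 0.96). Ssr4, a subunit of the translocon-associated complex, had 19.1 ± 3.95 against 5.98 ± 3.72 (1.87 ± 0.11), and Rpn2, of the oligosaccharyltransferase that glycosylates new proteins, had 9.35 ± 1.65 against 3.15 ± 1.26 (1.63 ± 0.11). Xbp1, a transcription factor of the unfolded protein response, was higher by 1.86 ± 0.12, the ER-resident neurotrophic factor Manf by 1.75 ± 0.14 and the cargo receptor Tmed10 by 2.07 ± 0.13, each in 17 of 17 plates. The group sums rose 2.17-fold, 2.23-fold and 1.96-fold, next to 1.83-fold for all genes but Hcrt and Pmch. With TMM, 22 and 1, 13 and 0, and 13 and 0 of these genes were higher and lower.

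Protein synthesis and turnover genes were higher almost without exception in Hcrt neurons, next to 53.3% of all genes (median 0.68). All 77 cytosolic ribosomal protein genes tested were called higher (median 0.98; 69 with TMM), as were 29 of 30 translation factors (median 0.96) and 28 of 28 proteasome genes (median 1.07). Eef1a1, the elongation factor that brings aminoacyl-tRNA to the ribosome, had lowest, median and highest plates of 57.8, 102.8 and 141 against 24.1, 39.5 and 74.8 (1.29 ± 0.08, adjusted p = 7.51e-23). Its plate ranges overlapped although it was higher in 17 of 17 plates. Rplp0, of the ribosomal stalk, was higher by 1.59 ± 0.10, and the proteasome subunit Psma5 by 1.54 ± 0.11. Reads of ribosomal protein genes can be split with near-identical pseudogenes, so single members are uncertain.

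Energy genes followed the bulk of genes more closely (median 0.68 over all genes, with 53.3% higher and 6.33% lower). All 55 nuclear respiratory chain genes were called higher (median 0.64), but with TMM 8 were higher and 6 lower. Glycolysis had 12 of 16 higher and 2 lower (median 0.71), with Pkm and Ldha at 1.28 ± 0.09 and 1.22 ± 0.10. Of 12 tested genes of the mitochondrial genome, 8 were higher (median 0.69), among them mt-Cytb at 0.77 ± 0.08. mt-Co1, a cytochrome c oxidase subunit, had 4.69 ± 1.22 against 4.67 ± 2.07 (0.10 ± 0.12, adjusted p = 0.465). The share of counts on the mitochondrial genome was lower in Hcrt neurons in 17 of 17 plates, 2.40% ± 0.33 against 3.12% ± 0.61 (SD of plate medians).

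Nuclear and structural genes split further. Of 30 genes of RNA polymerase II and mRNA processing 25 were higher (median 0.61), and of 10 nuclear long noncoding RNAs 6 (median 0.58). Over all genes 53.3% were higher and 6.33% lower (median 0.68), so the share of the noncoding RNAs was near that of all genes. Malat1 had plates of 490, 624 and 789 (lowest, median and highest) against 157, 262 and 682 (1.20 ± 0.08). Cytoskeletal genes had 23 of 26 higher, such as the tubulin Tuba1a (1.53 ± 0.09) and Stmn2, a microtubule regulator (1.35 ± 0.09). The 2 lower ones were the neurofilaments Nefl and Nefm, with Nefl at 1.19 ± 0.38 against 7.84 ± 6.01. Nefl and Nefm lie side by side on opposite strands and their annotated spans overlap, and the use of strand in counting is not given in the sources used here, so their counts may be mixed.

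Genes of synaptic release and excitability were split between higher and lower, next to 53.3% of all genes higher and 6.33% lower. Synaptic vesicle and SNARE genes had 11 of 25 higher and 8 lower (median 0.33; 5 and 12 with TMM), and their sum was 1.31-fold that of neither (higher in 15 of 17 plates). The most raised were the synaptotagmins Syt4 at 2.12 ± 0.10 and Syt5 at 1.86 ± 0.10. Pump and ion channel genes had 13 of 34 higher and 10 lower (median 0.09; 6 and 21 with TMM), with a sum of 1.41-fold (15 of 17 plates). Among the higher were the calcium channel subunit Cacna2d1 (2.76 ± 0.15) and the sodium channel Scn9a (1.83 ± 0.15), and among the lower the sodium channel Scn8a, the voltage-gated potassium channel Kcna1 and the leak channel Kcnk3, with Scn8a at 0.67 ± 0.29 against 2.04 ± 1.11. Snap25, which the choice of neurons required, had 25.7 ± 6.28 and 30.2 ± 14.8 per 1000 ERCC counts in these classes.

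Genes of neuronal identity went both ways, next to 53.3% of all genes higher and 6.33% lower (median 0.68). Of 20 neuropeptide and secreted-signal genes, 6 were higher and 11 lower in Hcrt neurons, and of 13 transmitter genes 5 and 5. Pdyn, the dynorphin precursor, had 39.0 ± 9.12 against 1.19 ± 1.04 (5.45 ± 0.29), and Nptx2, a secreted pentraxin of synapses, 10.9 ± 3.30 against 0.112 ± 0.151 (7.14 ± 0.20). Pth2, the precursor of the peptide TIP39, had 992 counts against 2, a ratio of 289 scaled to ERCC (exact 95% counting interval 79.7 to 2386). Cartpt, the precursor of CART peptide, was lower by -6.18 ± 0.42, with 0.111, 0.982 and 6.90 (lowest, median and highest plate) against 19.9, 73.6 and 131. Tac1 and Tac2 for tachykinins and Crh for corticotropin-releasing hormone were also lower, at -5.80 ± 0.45, -6.17 ± 0.51 and -6.72 ± 0.60. Gad2, which makes GABA, had 0.938 ± 0.438 against 10.7 ± 4.76 (-3.51 ± 0.14), and Slc17a6 4.83 ± 1.20 against 1.36 ± 1.78 (2.51 ± 0.34). Gad2 was counted in 84.7% of neurons of neither class and 20.6% of Hcrt neurons, and Slc17a6 in 90.2% of Hcrt neurons.

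Transcription factors of hypothalamic neurons had 4 of 20 higher and 10 lower in Hcrt neurons, next to 53.3% and 6.33% of all genes. Rfx4 was higher by 6.72 ± 0.45, and Dlx1, Dlx2 and Dlx5, homeobox factors of GABAergic neurons, were lower by -4.91 ± 0.35, -4.46 ± 0.49 and -5.05 ± 0.50. Gsx1, a further homeobox gene, was at -6.00 ± 0.39. The list of immediate early and dissociation genes had 11 of 16 higher and 1 lower, next to the same shares of all genes. It was led by Fos with 15.1 ± 3.68 against 1.90 ± 2.00 (3.47 ± 0.31). An effect of the tissue dissociation on these genes was not tested.

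Some abundant genes were not called while the bulk was higher. Besides mt-Co1, these were Tmem130 (23.0 ± 5.71 against 21.8 ± 8.84; 0.14 ± 0.09), Pnmal2 (0.13 ± 0.09), the peroxiredoxin Prdx5 (0.15 ± 0.09) and Coa3, a cytochrome oxidase assembly factor (0.15 ± 0.09), with adjusted p between 0.135 and 0.222. In all, 802 genes of at least 20 CPM (counts scaled to a common total per plate and class) lay within 0.25 of 0 and were not called. With TMM the same named genes were lower, from -0.54 to -0.47.

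Few markers of glia were called between Hcrt neurons and neither. Of 8 oligodendrocyte markers tested, 2 were called higher, next to 53.3% of all genes, and 0 with TMM. One was Mobp, a myelin-associated gene, with 1.07 ± 2.06 against 0.197 ± 0.532 (2.82 ± 1.11, adjusted p = 0.0383). For Mobp the SD over plates exceeded the mean in both classes. Of 2 tested astrocyte markers, the glutamate transporter Slc1a2 was higher (1.08) and Aldoc, an aldolase, lower (-0.94). Per plate, the oligodendrocyte list took 0.00382% to 0.169% of counts in Hcrt neurons (median 0.00611%), 0.00104% to 0.00776% in Pmch neurons (median 0.00299%) and 0.00519% to 0.239% in neither (median 0.0107%). Leaving out wells with over 1% of such counts changed no call of RNA content. Agrp, the marker of the fluorescent neurons that were not picked, had 279 counts in all Hcrt neurons, 11 in Pmch neurons and 3 in neither. Npy, the other marker fixed for AGRP neurons, went the opposite way with 2, 0 and 32 counts.

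Pmch neurons held more RNA of ER, Golgi and cytoskeletal genes than neither, next to 61.6% of all genes higher and 3.21% lower. ER translocation genes had 28 of 29 higher (median 1.80, against 1.05 over all genes), ER chaperones 20 of 22 (median 1.88) and Golgi and coat genes 24 of 26 (median 1.62), with 0 lower in each. Their sums were 3.99-fold, 3.85-fold and 3.16-fold those of neither, next to 2.40-fold for all genes but Hcrt and Pmch. Rpn2 had lowest, median and highest plates of 19.2, 32.7 and 39.9 against 1.86, 3.08 and 6.67 (3.15 ± 0.16, adjusted p = 1.06e-26), with no overlap. Manf (2.61 ± 0.23), the protein disulfide isomerase P4hb (2.58 ± 0.18), the KDEL receptor Kdelr2 (2.84 ± 0.25) and the cargo adaptor Mcfd2 (2.61 ± 0.18) were higher in 13 of 13 plates. With TMM 16, 14 and 11 of these lists' genes stayed higher and 0, 1 and 0 were lower.

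Granin and convertase genes were split in Pmch neurons. Of 15 members 10 were higher than in neither and 2 lower (median 1.20; 6 and 5 with TMM). The share called higher was near the 61.6% of all genes (median 1.05), while the share called lower exceeded their 3.21%. Pcsk2 had 53.6 ± 12.6 against 2.42 ± 3.26 (5.18 ± 0.47) and the granin Chga 47.6 ± 20.1 against 6.80 ± 2.89 (2.80 ± 0.32). Pcsk1 was one of the lower members (0.56 ± 0.75 against 2.098 ± 1.91), and Vgf, a granin-like precursor, the other (2.29 ± 1.17 against 14.5 ± 5.86). Scg2 was not called, with 58.3 ± 28.5 against 59.3 ± 20.4 (-0.15 ± 0.18, adjusted p = 0.465). In the same 13 plates Scg2 had 1200.0 ± 216 in Hcrt neurons.

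Cytoskeletal genes had 23 of 26 higher in Pmch neurons than in neither and 1 lower (median 1.30; 10 and 5 with TMM), next to 61.6% of all genes higher, and their sum was 3.63-fold. The tubulins Tuba1a and Tubb2a stood at 2.79 ± 0.13 and 2.26 ± 0.13, with Tuba1a at 66.6, 159 and 228 (lowest, median and highest plate) against 14.4, 24.2 and 41.2. Glycolysis had 15 of 16 higher (median 1.40; 7 higher and 1 lower with TMM), with Ldha at 2.297 ± 0.14 and Gapdh at 1.89 ± 0.12. These plates did not overlap for Tuba1a, and Gapdh was higher in 13 of 13.

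Next to 61.6% of all genes, ribosomal proteins (77 of 77), translation factors (29 of 29), proteasome genes (28 of 28) and nuclear respiratory chain genes (55 of 55) were all called higher in Pmch neurons, with medians of 1.25, 1.33, 1.38 and 0.98. Under TMM most of these calls ended: 5 ribosomal protein genes were higher and 2 lower, and 3 respiratory chain genes were higher and 14 lower. Synaptic vesicle genes had 18 of 25 higher and 4 lower (median 1.15), and channels 14 of 32 higher and 6 lower (median 0.52). With TMM these balances turned, to 4 higher and 9 lower for synaptic vesicle genes and 3 and 14 for channels. Snap25, which the choice of neurons used, had 68.1 ± 19.2 against 32.8 ± 15.2.

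The mitochondrial genome followed the bulk of genes only in part in Pmch neurons. Of 7 mitochondrial genes tested 6 were higher (median 0.52), next to 61.6% of all genes (median 1.05), and with TMM all 7 were lower. mt-Co1 was at -0.19 ± 0.19 (adjusted p = 0.384), and the mitochondrial share of counts was 1.60% ± 0.28 in Pmch neurons, lower than in neither in 13 of 13 plates. Malat1 was higher by 1.18 ± 0.12 and at 0.03 with TMM. Further genes that were not called were Cplx1, of the release machinery (-0.06 ± 0.18), Nefm (0.11 ± 0.35) and Tceal9 (0.18 ± 0.14), with adjusted p between 0.255 and 0.807.

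Pmch neurons had Gad1 but little Gad2. Gad1 had 26.4 ± 6.91 against 9.02 ± 2.62 in neither (1.54 ± 0.14), while Gad2 had 0.252 ± 0.604 against 11.3 ± 4.41 (-5.44 ± 0.57). Ache, which breaks down acetylcholine, was higher by 3.16 ± 0.16. Nts, the neurotensin precursor, had 0.177 ± 0.245 against 58.1 ± 24.8 (-7.81 ± 0.31). Tacr3, the receptor of neurokinin B, had 21.6 ± 10.7 against 0.0332 ± 0.0750 (8.61 ± 0.46), and the growth factor Igf1 11.5 ± 5.002 against 0.0673 ± 0.105 (7.54 ± 0.34). Otx1, a homeobox factor, had 497 counts against 3 (ratio 821, exact 95% counting interval 279 to 3995), and Zic1, a zinc finger factor, 163 against 3 (ratio 269, 90.5 to 1319).

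Genes with no count in one class have bounds only, set against 3 counts over that class. Mup6 had 867 counts in Pmch neurons and 0 in neither, at least 1432-fold higher, and belongs to a family of near-identical urinary protein genes, so its identity is uncertain. Calcr, the calcitonin receptor, had 0 counts in Pmch neurons and 715 in neither, at least 48.1-fold lower. Gsx1 and Dlx2 were at least 22.4-fold and 14.5-fold lower. The homeobox factor Isl1 was lower by -1.21 ± 0.45 (adjusted p = 0.0207), a call that ended without replicate 6 (-1.14, adjusted p = 0.0529).

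Between the peptide classes, Pmch neurons had more ER and cytoskeletal RNA, and Hcrt neurons a larger sum of granin RNA that rested on Scg2. ER translocation genes had 22 of 29 higher in Pmch neurons (median 0.78, against 0.39 over all genes, 32.7% of them higher). ER chaperones had 18 of 23 higher (median 0.83), Golgi genes 19 of 26 (median 0.75), cytoskeletal genes 22 of 26 with 1 lower (median 0.82) and glycolysis 14 of 16 (median 0.73). With TMM the cytoskeletal genes had 14 higher and 2 lower, and glycolysis 7 and 2. Rpn2 had plates of 19.2, 32.7 and 39.9 against 7.30, 10.1 and 12.004 in Hcrt neurons (1.63 ± 0.11), again without overlap. Nefl was higher by 3.21 ± 0.22 and Pfkp, a phosphofructokinase, by 2.73 ± 0.13. The sum of granin genes was 0.296-fold that of Hcrt neurons, with Scg2 at -4.52 ± 0.24 and Pcsk1 at -5.11 ± 0.37, although 7 members were higher and 6 lower (4 and 9 with TMM), next to 32.7% and 6.25% of all genes. The sums were 0.459 counts per ERCC count in Pmch neurons and 1.54 in Hcrt neurons. Scg2 made most of the latter: in the 17 plates compared with neither, it was 1.16 of 1.49 in Hcrt neurons. With the Scg2 amounts given above for the plates with both peptide classes taken off both sums, the smaller sum was that of Hcrt neurons. This remainder was not tested. Pcsk2 was higher in Pmch neurons by 3.14 ± 0.11.

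**Figure D5:**
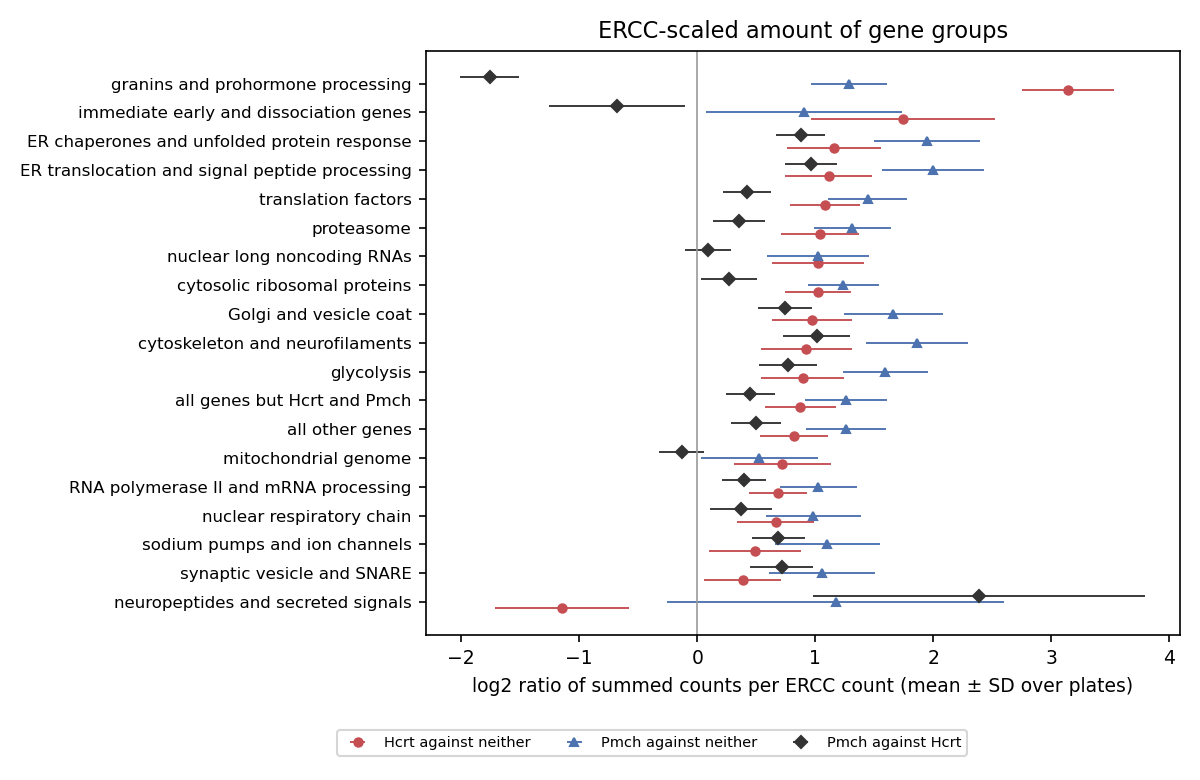
Log2 ratio of the summed counts per ERCC count of each gene list (mean ± SD over plates) for Hcrt neurons against neither (circles), Pmch neurons against neither (triangles) and Pmch against Hcrt neurons (diamonds). Granins are at 8.84-fold in Hcrt neurons and 2.43-fold in Pmch neurons against neither, and ER translocation genes at 2.17-fold and 3.99-fold. Scg2 alone makes 1.16 of the 1.49 granin counts per ERCC count of Hcrt neurons (17 plates).

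Ribosomal and respiratory chain genes were in part higher in Pmch than in Hcrt neurons per spike-in count, next to 32.7% of all genes, and mostly lower or not called with TMM. Ribosomal protein genes had 39 of 77 higher in Pmch neurons and 0 lower (median 0.25), but with TMM 1 was higher and 51 lower. Respiratory chain genes had 43 of 55 higher (median 0.42; 2 higher and 21 lower with TMM), and the mitochondrial genome 0 of 10 higher and 1 lower (median 0.00). Malat1 was at 0.07 ± 0.07 (adjusted p = 0.448; -0.50 with TMM). Eef1a1 was higher by 0.49 ± 0.08 with spike-ins and at -0.08 with TMM. In all, 1434 genes of at least 20 CPM lay within 0.25 of 0 and were not called.

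Identity genes differed widely between the peptide classes. Cartpt had plates of 0, 378 and 1294 (lowest, median and highest) in Pmch neurons and 0.119, 1.01 and 3.31 in Hcrt neurons (8.60 ± 0.68). Single Pmch plates thus ranged from no Cartpt to high levels. Gad1 was higher in Pmch neurons (4.92 ± 0.14), and so was Tacr3 (9.63 ± 0.22). Pdyn (-7.27 ± 0.17) and Lhx9, a LIM homeobox factor (-6.37 ± 0.36), were lower. Cidea, a lipid droplet protein, the receptors Crhr2 and Htr1a, and Pth2 had 0 counts in Pmch neurons and were at least 47.3-fold, 44.1-fold, 22.9-fold and 20.9-fold lower. Fos was lower by -1.48 ± 0.14. Of 7 tested oligodendrocyte markers 5 were lower in summed counts, next to 6.25% of all genes, with Mbp, the myelin basic protein gene, at 0.0716 ± 0.175 against 2.51 ± 2.05. The median neuron differed little. Plate medians of the list's share averaged 0.00256% in Pmch and 0.00308% in Hcrt neurons, higher in Pmch neurons in 6 plates and lower in 7. Of wells with 1% or more of such counts, 10 were Hcrt neurons and 0 were Pmch neurons.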

How the data were processed

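Single cell bodies were sequenced with Smart-SCRB, a plate method in which read 1 carries a well barcode and a unique molecular identifier. The deposited table holds whole-number counts of 52636 genes, 92 ERCC spike-ins and 11 transgenes in 1824 wells, and the deposited well table gives the percent of counts on ERCC, which matched a recount within 0.001 in 1823 wells. Per the submitters' processing notes, bcl2fastq 2.20, cutadapt 2.1.0, STAR 2.7.5c, STARsolo 2.7.5c, Seurat 2.3.4 and R 3.4.3 were used with GRCm38. Collapsing of identifiers, use of strand and annotation release are not given in the sources used here. Plate totals over kept neurons were 1443583 to 5027969 counts. Intervals and floors of 3 counts cover counting error only. Doublets were not called, because cell bodies were picked singly into wells.

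RNA content was compared through medians of log2 content per plate and class, in plates with at least 3 neurons in both classes, by two-sided sign flips (exact where all flips number at most 100000, otherwise 100000 random permutations), with Benjamini-Hochberg adjustment over 6 tests. Plate pairs the classes because both come from the same plate. Counts summed per plate and class were tested with edgeR 4.0.16 in R 4.3.3 (robust quasi-likelihood test, plate as block, offset of log summed ERCC counts, filterByExpr), with Benjamini-Hochberg adjustment over all genes and 0.05 as threshold, and the test was checked on simulated data. The SE is the absolute log2 fold change over the square root of F, so it restates the test. Alternatives were TMM, library totals, DESeq2 1.42.0, gates, filters, leaving out each plate, and 3 sets added after seeing the data.

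Genes to name had to pass the threshold, differ by 1 or more in log2, reach 20 CPM in the higher class and keep 1 direction in 80% of plates: the 8 largest each way, up to 3 per list, and a fixed set. Level genes were the 5 of highest CPM within 0.25 of 0. Cadps2, Nefl, Scn8a, Kcna1, Kcnk3, Vgf, Nts in part, mt-Cytb, Mobp, Slc1a2, Aldoc, Npy and Agrp were named for their values, and 1 gene the rule named is not reported here. Neuron classes, 28 lists and genes were chosen with earlier results of these data known.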

Additional observations from a re-analysis of the deposited data

Results flagged for a closer look

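Signal was also seen in data outside the comparisons. A well labelled Empty on plate 15 had 10.7 mouse counts per ERCC count, from 100707 mouse and 9418 ERCC counts, with 5682 genes and 159 counts of Hcrt. A well labelled empty on plate 16 had 1.87, from 829 mouse and 444 ERCC counts, with 676 genes, 0 counts of Snap25 and 77 of Hcrt. The median of all wells labelled ERCC (64) or empty (40) was 0.122. The 68 qRNA wells had a median of 12.8. Rows for transgenes had a mean of 0.711 counts per kept neuron. Of these, the row of WPRE, an element placed in expression vectors, had a count in 405 kept neurons (29.7%) and in 1 ERCC or empty well.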

How the results depend on the processing

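Direction and call of RNA content without Hcrt and Pmch held in the 3 comparisons between classes under every other setting run, leave-one-out included, except for Pmch neurons against neither in designs of few plates. Values with all counts, which include those that chose the classes, are a description. There the log2 differences were 1.40 (all counts) and 1.08 (without Hcrt and Pmch) with gates at 0.2%, 1.43 and 1.11 with neither kept under 0.2%, and 1.57 and 1.26 with at least 5 neurons per class. Each had 5 plates, which allow no exact permutation p under 0.0625. With neither restricted to its glutamate gate, chosen after seeing the data, they were 1.46 and 1.19 in 4 plates (smallest exact p 0.125). GABA minus glutamate was -0.27 with 1 neuron per class (13 plates, permutation p = 0.0325). Limits on ERCC counts and at 2000 genes removed no well.

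Leaving out 1 plate at a time gave 1.03 to 1.10, 1.49 to 1.59 and 0.52 to 0.61 with all counts, and 0.81 to 0.89, 1.20 to 1.32 and 0.45 to 0.55 without Hcrt and Pmch, for Hcrt against neither, Pmch against neither and Pmch against Hcrt. For GABA minus glutamate it gave -0.24 to -0.10.

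Counts of called genes (higher and lower) in the same order were 2548 and 1930, 1034 and 1129, and 1186 and 1955 with TMM, and 984 and 4978, 536 and 2709, and 1280 and 1678 with library totals. Without the plate block, which pairs classes, lower calls were 408, 68 and 414. With neither under 0.2%, Pmch neurons had 2496 and 134.

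Library totals turned the sign of Polr2k (-0.017), Hnrnpa1 (-0.045), Syp (-0.041), Gapdh (-0.044) and Rplp1 (-0.19) in Hcrt neurons against neither, and Ndufa4 (-0.054), Hnrnpk (-0.016), Miat (-0.060), Malat1 (-0.36), Gad1 (-0.016), Syt1 (-0.21), Snap25 (-0.42; -0.023 with TMM) and Rplp1 (-0.34) in Pmch against neither. Of these, Rplp1 (edgeR adjusted p = 0.00104 and 0.000673) and Malat1 (4.52e-06) were called lower. The others were not called, apart from Snap25, which is given without a test. In Pmch against Hcrt neurons Eef1a1 was at -0.025 and Rplp1 at -0.18 with totals, and at -0.080 and -0.23 with TMM. Only Rplp1 was called lower there (edgeR adjusted p = 0.0319 and 0.00454). Other named genes changed their call in 12 settings not of scaling, such as Kcnc2 in Pmch neurons with neither under 0.2% (0.94). The cause of these was not tested beyond the scaling itself.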

Other observations

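Counts of the WPRE row were found in every neuron class. A count was seen in 32.8% of Hcrt neurons (exact 95% binomial interval 29.8 to 35.9), 22.4% of Pmch neurons (13.1 to 34.2) and 22.5% of neither (18.3 to 27.2). Per 1000 ERCC counts the row had 0.497, 0.442 and 0.251. These shares were not thinned to one depth, and the classes differ in mouse counts per neuron.

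Genes outside the lists added to the RNA of Hcrt neurons, and these are named for their values. Itm2b, a membrane protein gene, had 145.9 ± 24.3 counts per 1000 ERCC counts in Hcrt neurons, 19.6 ± 6.06 in neither and 83.9 ± 16.5 in Pmch neurons (n = 13 plates, the same for both genes). Nnat, an imprinted gene of the ER membrane, had 89.8 ± 21.4, 2.385 ± 1.39 and 32.7 ± 15.55.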
